A study of Rattus norvegicus with 20 samples.

Results

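The genes described here make bile acids in the liver, attach them to amino acids, and carry them into and out of the hepatocyte. Their members were chosen by name, as every probe set that the array annotation assigns to Cyp7a1, Cyp8b1, Cyp27a1, Akr1d1, Hsd3b7, Slc27a5, Baat, Slc10a1, Abcb11 or Abcb4 alone. That rule found 11 probe sets for these 10 genes, of 31042 probe sets that were not controls and 14217 genes with a probe set of their own. Akr1d1 had 2 probe sets and each of the others had 1.

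Liver RNA was measured on 20 rat expression arrays, 5 per group. Female Wistar Han rats, Crl:WI (Han), arrived timed-mated on gestation day 2, when they were 11 to 12 weeks old. The dams were gavaged each day with 5 mL/kg of corn oil that held 0, 0.02, 3 or 10 mg/mL of PBDE-47, a polybrominated diphenyl ether of the kind used as flame retardants. Daily doses were thus 0 (vehicle), 0.1, 15 and 50 mg/kg, given from gestation day 6 until postnatal day 4. The left lobe was taken on postnatal day 4, and the labels leave unstated whether dams or offspring gave the tissue and which arrays share a litter. Every p below therefore reflects only the spread among these arrays, which may be technical in part.

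The labelled tissue was checked against its markers. Albumin (14.73 to 14.82 log2 units), Ttr (14.05 to 14.23) and the fetal protein Afp (14.21 to 14.34) were near the top of the scale on all 20 arrays. In vehicle livers the mean of 4 fetal liver markers, Afp among them, was 11.98 to 12.24, and that of 7 erythroid markers 9.89 to 10.57. No liver of known adult age was measured beside them, so whether they came from dams or offspring was not tested. Among bile duct markers, Krt19 read 5.92 to 7.54, Krt7 4.34 to 4.98 and Cftr 3.07 to 3.55. On 9 of the 20 arrays the mean of a muscle or an exocrine pancreas marker list lay over 2 log2 units above the lowest array. These were 1 vehicle array, 4 at 0.1 mg/kg, 2 at 15 mg/kg and 2 at 50 mg/kg. The mean of 9 measured muscle genes ran from 3.85 to 7.87 in vehicle livers, 4.00 to 8.23 at 0.1 mg/kg, 3.90 to 8.04 at 15 mg/kg and 4.09 to 6.55 at 50 mg/kg, and that of 10 pancreas genes reached 4.84, 7.06, 7.16 and 4.88 in the same order. The mean of 7 Kupffer cell markers, for the resident macrophages of the liver, was 9.21 to 9.59 at 50 mg/kg. It was 9.86 to 10.01 in vehicle livers, with no overlap. Of the 7 markers, 4 were lower at 50 mg/kg by the array-wide test, as were 0.348% of all probe sets. The Kupffer mean was 9.53 to 10.04 at 0.1 mg/kg and 9.61 to 9.92 at 15 mg/kg. The mean of 8 hepatocyte markers was 13.30 to 13.41 in vehicle livers and 13.28 to 13.38 at 0.1 mg/kg. At 15 mg/kg that mean was 13.13 to 13.36, and at 50 mg/kg 13.15 to 13.39. Changes below 0 were seen for 4, 8 and 7 of these 8 markers at 0.1, 15 and 50 mg/kg. All 7 erythroid markers had changes below 0 at each dose (medians -0.14, -0.29 and -0.36). In both lists 0 markers passed at any dose.

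Bile acids are made from cholesterol in hepatocytes. In the classic route Cyp7a1 adds the first hydroxyl group, and enzymes such as Hsd3b7, Cyp8b1 and Akr1d1 then reshape the ring system before Cyp27a1 oxidises the side chain. The products are joined to taurine or glycine, pumped into the bile canaliculus and, after their return from the gut, taken up again by the hepatocyte. Bile acids activate the nuclear receptor FXR (Nr1h4), which lowers their synthesis and raises their export.

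Promoter sequences are shown for 3 members, because Cyp8b1 and Cyp27a1 share a motif and, as described below, had among the widest and the narrowest spread between arrays, and because Baat carries a rarer motif. Of the 10 genes, 7 matched the RefSeq promoter table of GRCr8, which gives 250 bases before and 50 after each gene start. Cyp7a1, Abcb11 and Akr1d1 are named only. Both strands of 33469 promoters were searched for CAAGGTC, the site of the receptor family of Nr5a2, for CAAAGTCCA, an element of the Hnf4a type, and for AGGTCA and TGACCT with 1 base between them, the inverted repeat bound by FXR. No match overlapped a match of another motif in the members' promoters. In the lines below each promoter runs 5′ to 3′ on the strand of its gene. Capitals mark CAAGGTC in Cyp8b1 (chr8:130457543-130457842, minus strand), its reverse complement in Cyp27a1 (chr9:83713282-83713581, plus strand) and CAAAGTCCA in Baat (chr5:68656088-68656387, minus strand).
Cyp8b1: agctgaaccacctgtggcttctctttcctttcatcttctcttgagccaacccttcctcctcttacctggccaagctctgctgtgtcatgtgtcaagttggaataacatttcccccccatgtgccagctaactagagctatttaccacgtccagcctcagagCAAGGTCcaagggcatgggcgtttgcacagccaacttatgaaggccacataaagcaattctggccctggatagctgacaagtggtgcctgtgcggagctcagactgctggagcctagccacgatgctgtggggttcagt
Cyp27a1: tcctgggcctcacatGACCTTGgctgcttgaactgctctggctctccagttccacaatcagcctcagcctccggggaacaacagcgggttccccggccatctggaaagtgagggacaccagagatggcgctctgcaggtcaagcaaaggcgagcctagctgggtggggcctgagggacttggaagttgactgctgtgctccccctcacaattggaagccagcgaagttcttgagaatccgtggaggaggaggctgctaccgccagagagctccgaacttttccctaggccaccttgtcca
Baat: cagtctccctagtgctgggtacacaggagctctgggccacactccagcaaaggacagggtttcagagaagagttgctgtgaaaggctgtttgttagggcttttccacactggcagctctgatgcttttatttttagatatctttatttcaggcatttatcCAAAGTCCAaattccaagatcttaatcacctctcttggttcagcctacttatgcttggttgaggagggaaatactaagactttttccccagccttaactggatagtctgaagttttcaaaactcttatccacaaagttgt
The CAAGGTC match lay 89 to 83 bases upstream of the Cyp8b1 start and 235 to 229 bases upstream of the Cyp27a1 start. It was found in 4.2% of all promoters and in 2 of the 7 matched here. The CAAAGTCCA match lay 90 to 82 bases upstream of the Baat start, and Abcb4 held one 30 to 22 bases upstream. That motif was in 0.391% of all promoters. The inverted repeat was in 0.0269% of all promoters and in 0 of the 7. These are matches of letters only and say nothing of binding.

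At 50 mg/kg 1 of the 11 member probe sets was lower than in vehicle livers, 0 were higher and 10 did not pass (limma, Benjamini-Hochberg adjusted p under 0.05 over all 31042 probe sets). The background was 0.934% of all probe sets called, and 0.348% called lower. None (0 of 11) passed at 15 mg/kg, where 0.116% of all probe sets did. Neither at 0.1 mg/kg against vehicle nor at 50 against 15 mg/kg did any pass (0 of 11 in each), and 0% of all probe sets did. With no adjustment, 2 of the 11 had p under 0.05 at 50 mg/kg (13% of all probe sets), 2 at 15 mg/kg (12.1%), 2 at 0.1 mg/kg (6.87%), 3 between 50 and 15 mg/kg (5.63%) and 2 for a slope over the dose order (14.3%). Groups without overlap were found for 1 of the 11 at 50 mg/kg (2.96% of all probe sets), 0 at 15 mg/kg (2.32%), 1 at 0.1 mg/kg (1.24%) and 0 between 50 and 15 mg/kg (1.01%). With 11 probe sets such counts of 0 to 3 give no basis for setting the members apart from the array. By the brighter probe set of each gene, 0 of the 10 genes passed at any dose.

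The median log2 change of the 11 probe sets was -0.06 at 0.1 mg/kg, -0.03 at 15 mg/kg and -0.08 at 50 mg/kg, beside 0.0083, 0.0135 and 0.009 over all probe sets tested. Signs were mixed, with 2 of 11 changes above 0 at 0.1 mg/kg, 4 at 15 mg/kg and 4 at 50 mg/kg. These 3 comparisons share the 5 vehicle arrays. For 6 of the 11 probe sets the 95% interval of the change at 50 mg/kg lay inside 0.5 log2 units on either side of 0, and for 10 of the 11 inside 1 log2 unit. These counts were 6 and 10 at 15 mg/kg, and 7 and 10 at 0.1 mg/kg. In these arrays values are log2 RMA units, which compress differences at both ends of the scale. Less RNA of a gene per hepatocyte and fewer hepatocytes in the piece cannot be told apart in such bulk samples.

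**Figure D1:**
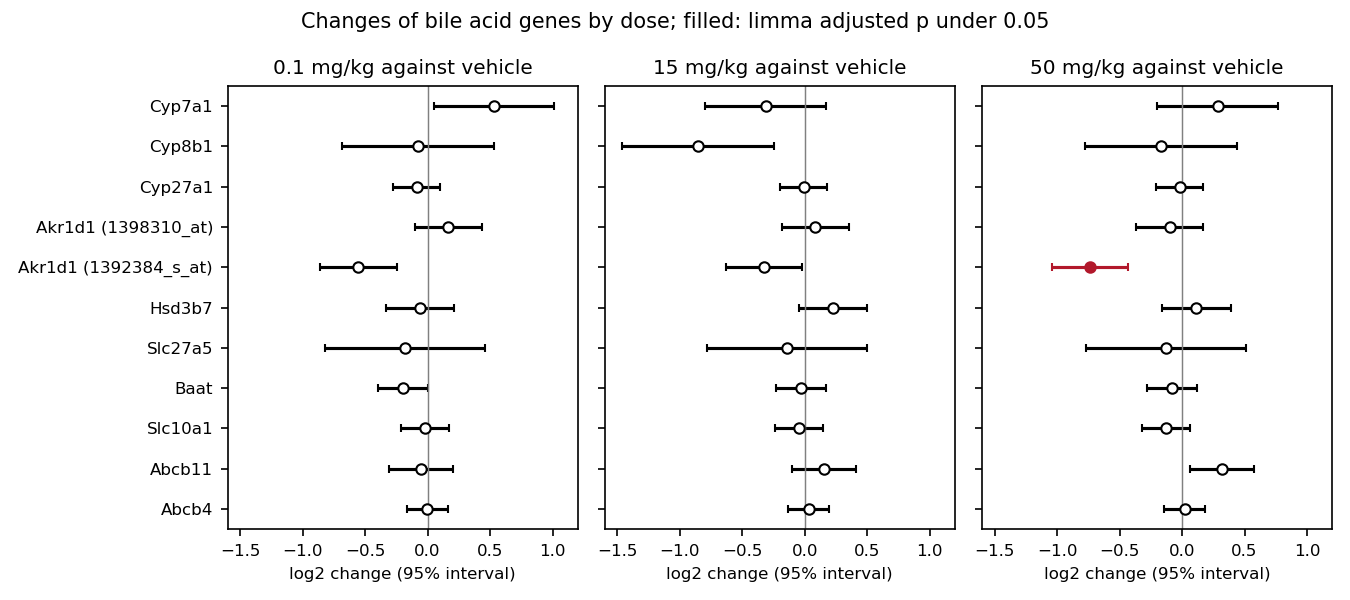
Log2 change (x axis, with 95% interval) of each member probe set at 0.1, 15 and 50 mg/kg per day against vehicle, 5 arrays per group. The filled point is the 1 change that passed, Akr1d1 probe set 1392384_s_at at 50 mg/kg (-0.74), and the widest intervals belong to Cyp8b1 and Slc27a5.

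Cyp7a1, the rate-limiting enzyme of the classic route, did not pass at any dose. Probe set 1368458_at (chromosome 5) read 7.31, 8.51, 8.23, 7.64 and 7.60 on the vehicle arrays, 8.69, 8.02, 8.84, 8.06 and 8.34 at 0.1 mg/kg, 7.84, 7.40, 7.78, 7.49 and 7.22 at 15 mg/kg, and 7.91, 8.42, 8.53, 7.48 and 8.38 at 50 mg/kg. The order of the means was not the order of the doses: the highest was at 0.1 mg/kg and the lowest at 15 mg/kg, all 5 arrays at 15 mg/kg lay below the vehicle mean, and the vehicle arrays overlapped every dose. Means were 7.86 ± 0.50 in vehicle livers, 8.39 ± 0.37 at 0.1 mg/kg, 7.55 ± 0.26 at 15 mg/kg and 8.14 ± 0.44 at 50 mg/kg (SD, n = 5 each). Each step between neighbours in the order of these means was smaller than the pooled within-group SD of 0.40.

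Against vehicle the log2 change of Cyp7a1 was 0.53 at 0.1 mg/kg (SE 0.23, adjusted p = 0.685), -0.31 at 15 mg/kg (adjusted p = 0.609) and 0.29 at 50 mg/kg (adjusted p = 0.659). The 95% interval at 50 mg/kg ran from -0.20 to 0.77. With 1 array left out the Cyp7a1 change lay between 0.15 and 0.45 at 50 mg/kg and between -0.45 and -0.15 at 15 mg/kg. Between the upper doses Cyp7a1 was 0.60 log2 units higher at 50 than at 15 mg/kg, with an unadjusted p of 0.0178 and an adjusted p of 0.858. Without the arrays that held muscle or pancreas transcripts the Cyp7a1 change was 1.15 at 0.1 mg/kg, -0.12 at 15 mg/kg and 0.75 at 50 mg/kg. Only 1 array at 0.1 mg/kg was left there, which is assumed to vary like the other groups.

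Cyp8b1, the sterol hydroxylase that directs synthesis to cholic acid, had its lowest values at 15 mg/kg. Probe set 1368435_at (chromosome 8) read 10.55, 9.80, 10.07, 10.67 and 9.30 in vehicle livers, 10.22, 10.51, 10.28, 9.94 and 9.05 at 0.1 mg/kg, 9.14, 9.34, 9.19, 9.53 and 8.92 at 15 mg/kg, and 9.67, 10.85, 9.32, 10.03 and 9.68 at 50 mg/kg. All 5 arrays at 15 mg/kg were below the vehicle mean, but vehicle replicate 5 lay among them, so these groups overlapped. The Cyp8b1 change at 15 mg/kg was -0.85 log2 units (SE 0.29, interval -1.46 to -0.25, unadjusted p = 0.0082, adjusted p = 0.259), which did not pass over the array. Its change was -0.17 at 50 mg/kg (interval -0.78 to 0.44, adjusted p = 0.867) and -0.08 at 0.1 mg/kg (adjusted p = 0.984). Single arrays moved the Cyp8b1 change at 50 mg/kg between -0.41, without replicate 2 of that dose, and -0.02, without vehicle replicate 4. With the Kupffer covariate it was -0.91 (adjusted p = 0.644). In order of mean level vehicle, 0.1 and 50 mg/kg followed each other within the pooled SD of 0.51, and only the step down to 15 mg/kg exceeded it. The difference between 50 and 15 mg/kg was 0.68 (unadjusted p = 0.0292, adjusted p = 0.858).

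Cyp27a1, the mitochondrial sterol hydroxylase of the side chain, varied little. All 20 values of probe set 1387914_at (chromosome 9) fell between 10.96 and 11.46, and the group means were 11.23 for vehicle, 11.15 at 0.1 mg/kg, 11.22 at 15 mg/kg and 11.22 at 50 mg/kg. The Cyp27a1 change at 50 mg/kg was -0.02 with an interval of -0.20 to 0.17, inside 0.5 log2 units on either side of 0.

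Hsd3b7, which oxidises the ring hydroxyl group that cholesterol brings, averaged 9.39 ± 0.15 in vehicle livers, 9.33 ± 0.30 at 0.1 mg/kg, 9.61 ± 0.26 at 15 mg/kg and 9.50 ± 0.12 at 50 mg/kg on probe set 1370433_at (chromosome 1; SD, n = 5 each). Its largest difference from vehicle was 0.23 at 15 mg/kg (unadjusted p = 0.102, adjusted p = 0.504), and every dose overlapped vehicle. The Hsd3b7 change at 50 mg/kg was 0.11 (adjusted p = 0.783).

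Akr1d1, the reductase that gives the sterol ring its bent bile acid shape, was the member that passed the test, and only on the dimmer of its probe sets. Probe set 1392384_s_at read 9.56, 9.94, 10.06, 9.67 and 9.52 on the vehicle arrays, 9.35, 9.36, 8.88, 9.12 and 9.27 at 0.1 mg/kg, 9.40, 9.25, 9.25, 9.92 and 9.30 at 15 mg/kg, and 9.26, 8.75, 8.70, 9.14 and 9.21 at 50 mg/kg. Every array at 50 mg/kg and every array at 0.1 mg/kg lay below every vehicle array. Of the arrays at 15 mg/kg 4 of 5 did, and replicate 4 lay among the vehicle values. Groups that do not overlap in this direction were found for 1.18% of all probe sets at 50 mg/kg and 0.474% at 0.1 mg/kg.

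On this probe set Akr1d1 was 1.67-fold lower at 50 mg/kg than in vehicle livers (log2 change -0.74, SE 0.147, adjusted p = 0.0191), with an interval of 1.35-fold to 2.06-fold lower. The Akr1d1 change was -0.33 at 15 mg/kg (unadjusted p = 0.0387, adjusted p = 0.388) and -0.55 at 0.1 mg/kg (unadjusted p = 0.0012, adjusted p = 0.436), neither of which passed. The mean at 0.1 mg/kg (9.20) was thus lower than that at 15 mg/kg (9.42), and the values did not fall step by step with dose. A slope over the dose order was -0.20 log2 units per step (SE 0.0465, adjusted p = 0.0350), in a contrast that called 1.45% of all probe sets and 0.486% as falling. The slope did not pass in 7 of the 20 fits that left out 1 array, nor with the replicate block (adjusted p = 0.0600), a block on the first digit of each description (0.0511) or no variance shrinkage (0.0653). It was also lost without the arrays that held muscle or pancreas transcripts (0.453) and with the Kupffer covariate (0.384). Between 50 and 15 mg/kg the difference was -0.41 (unadjusted p = 0.0112, adjusted p = 0.858).

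The call at 50 mg/kg was close to the threshold. It was lost when vehicle replicate 2 (adjusted p = 0.0515), vehicle replicate 3 (0.0537) or replicate 3 of the 50 mg/kg arrays (0.0523) was left out, while the Akr1d1 change stayed between -0.80 and -0.66 in the 10 fits that left out 1 array. Without the arrays that held muscle or pancreas transcripts the change was -0.81 (adjusted p = 0.211), and with the Kupffer list mean as a covariate it was -0.85 (adjusted p = 0.370). The decline was thus as large in both, and the share of the lost calls that fewer arrays or the added term took was not tested. The Kupffer mean did not overlap between these groups, and with it the SE of the Akr1d1 change was 0.253, beside 0.147 without it.

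The other Akr1d1 probe set, 1398310_at, did not pass at any dose (the gene lies on chromosome 4). It read 10.58, 11.15, 10.67, 10.61 and 10.86 in vehicle livers, 11.01, 10.88, 10.90, 10.88 and 11.03 at 0.1 mg/kg, 10.89, 10.84, 10.74, 11.16 and 10.66 at 15 mg/kg, and 10.91, 10.19, 10.70, 10.67 and 10.92 at 50 mg/kg. The groups overlapped, and replicate 2 at 50 mg/kg was the lowest of the 20. Its log2 changes against vehicle were 0.17 at 0.1 mg/kg (adjusted p = 0.844), 0.08 at 15 mg/kg (0.827) and -0.10 at 50 mg/kg (interval -0.36 to 0.17, adjusted p = 0.819).

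The gap between the Akr1d1 probe sets was therefore taken within each array, in a comparison chosen after the values were seen. The dimmer minus the brighter probe set was -1.66 ± 0.21 log2 units at 50 mg/kg and -1.02 ± 0.28 in vehicle livers (SD, n = 5 each; difference -0.64, exact two-sided permutation p = 0.00794, the smallest that 5 against 5 arrays can give). The gap was -1.43 ± 0.14 at 15 mg/kg, a difference of -0.41 from the same vehicle arrays (exact permutation p = 0.0159), and at 0.1 mg/kg it was -1.74 ± 0.18, a difference of -0.72 (exact permutation p = 0.00794). Adjusted over these 3 comparisons the values were 0.0119, 0.0159 and 0.0119 in the same order. That adjustment does not cover the choice made after the values were seen, so these p-values describe the gap and are no independent test of it. The gap does not show which of the probe sets reports the Akr1d1 transcript. The suffix of 1392384_s_at marks probes that can match more than 1 transcript, and no sequence of either probe set was used here.

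**Figure D2:**
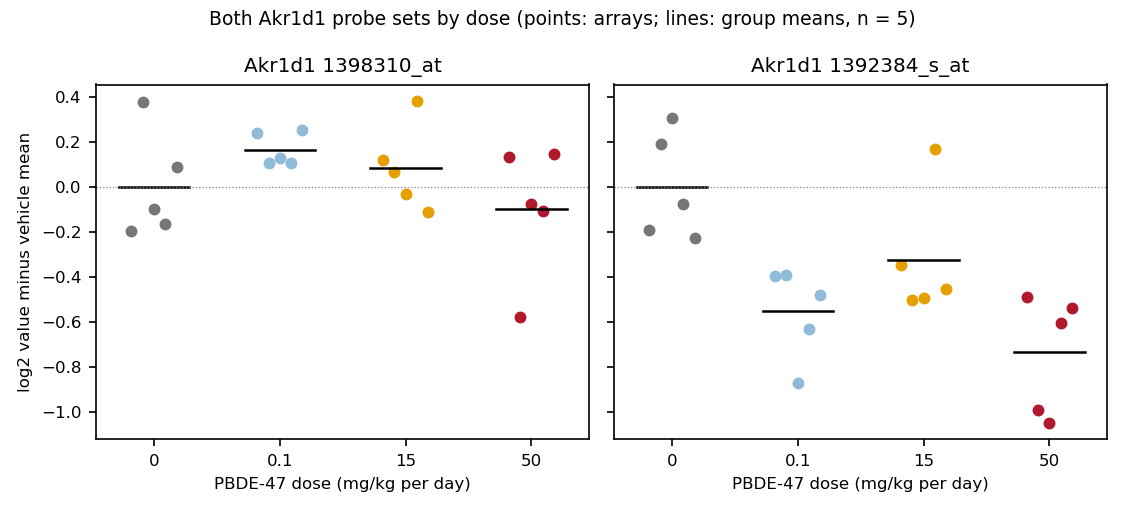
Akr1d1 by dose (x axis, mg/kg per day) on probe sets 1398310_at and 1392384_s_at, as log2 value minus the vehicle mean of that probe set. Points are arrays and lines are group means (n = 5): the 50 mg/kg mean of 1392384_s_at is -0.74 and that of 1398310_at is -0.10.

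Conjugation takes a pair of enzymes. Slc27a5 activates bile acids as coenzyme A esters, and Baat joins them to taurine or glycine. Probe set 1387325_at of Slc27a5 (chromosome 1) read 11.24, 11.27, 11.13, 11.72 and 11.51 in vehicle livers, 12.07, 10.37, 11.80, 11.18 and 10.55 at 0.1 mg/kg, 11.94, 11.13, 10.97, 11.41 and 10.72 at 15 mg/kg, and 11.87, 11.45, 10.56, 11.61 and 10.75 at 50 mg/kg. Arrays both above and below the whole vehicle range were found at each of the 3 doses. The within-group SD of Slc27a5 was 0.24 for vehicle, 0.75 at 0.1 mg/kg, 0.47 at 15 mg/kg and 0.56 at 50 mg/kg, and the difference between these spreads was not tested. Its log2 changes were -0.18, -0.14 and -0.13 at 0.1, 15 and 50 mg/kg, each with an SE of 0.307, and the interval at 50 mg/kg ran from -0.77 to 0.51.

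Baat was steadier. Its probe set 1387508_at (chromosome 5) averaged 11.66 ± 0.22 in vehicle livers, 11.46 ± 0.12 at 0.1 mg/kg, 11.63 ± 0.13 at 15 mg/kg and 11.58 ± 0.11 at 50 mg/kg (SD, n = 5 each), with all 20 values between 11.33 and 11.87. The lowest group was 0.1 mg/kg, where the Baat change was -0.20 (unadjusted p = 0.0512, adjusted p = 0.729). For 50 mg/kg it was -0.08, with an interval of -0.28 to 0.12.

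Slc10a1 is the sodium-dependent carrier (NTCP) that takes bile acids up from portal blood. On probe set 1368609_at (chromosome 6) its means were 12.80 in vehicle livers, 12.77 at 0.1 mg/kg, 12.75 at 15 mg/kg and 12.67 at 50 mg/kg. The single low value was 12.31, on replicate 2 at 50 mg/kg, and the other 19 lay between 12.64 and 12.98. At 50 mg/kg the Slc10a1 change was -0.12 (interval -0.32 to 0.07, adjusted p = 0.619), and -0.03 without that replicate.

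Abcb11, the bile salt export pump of the canalicular membrane, had its highest mean at 50 mg/kg. Probe set 1368769_at (chromosome 3) read 10.88, 11.07, 10.94, 11.58 and 11.32 in vehicle livers, 11.36, 11.01, 11.09, 11.07 and 11.00 at 0.1 mg/kg, 11.47, 11.53, 11.25, 11.21 and 11.11 at 15 mg/kg, and 11.39, 11.26, 11.48, 11.66 and 11.61 at 50 mg/kg. All 5 arrays at 50 mg/kg lay above the vehicle mean of 11.16, but vehicle replicates 4 and 5 lay among them. The Abcb11 change at 50 mg/kg was 0.32 (SE 0.12, interval 0.06 to 0.58, unadjusted p = 0.0167, adjusted p = 0.259), at 15 mg/kg 0.16 (adjusted p = 0.634) and at 0.1 mg/kg -0.05 (adjusted p = 0.966). Its slope over the dose order was 0.12 per step (unadjusted p = 0.0068, adjusted p = 0.154), which passed once vehicle replicate 4 was left out (0.15, adjusted p = 0.0493). The neighbouring group means of Abcb11 were within the pooled SD of 0.20 of each other.

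Abcb4, which moves phosphatidylcholine into bile, had the smallest spread of the members. Its probe set 1369161_at (chromosome 4) averaged 9.98 in vehicle livers, 9.97 at 0.1 mg/kg, 10.01 at 15 mg/kg and 10.00 at 50 mg/kg. The Abcb4 change at 50 mg/kg was 0.02, with an interval of -0.14 to 0.19.

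**Figure D3:**
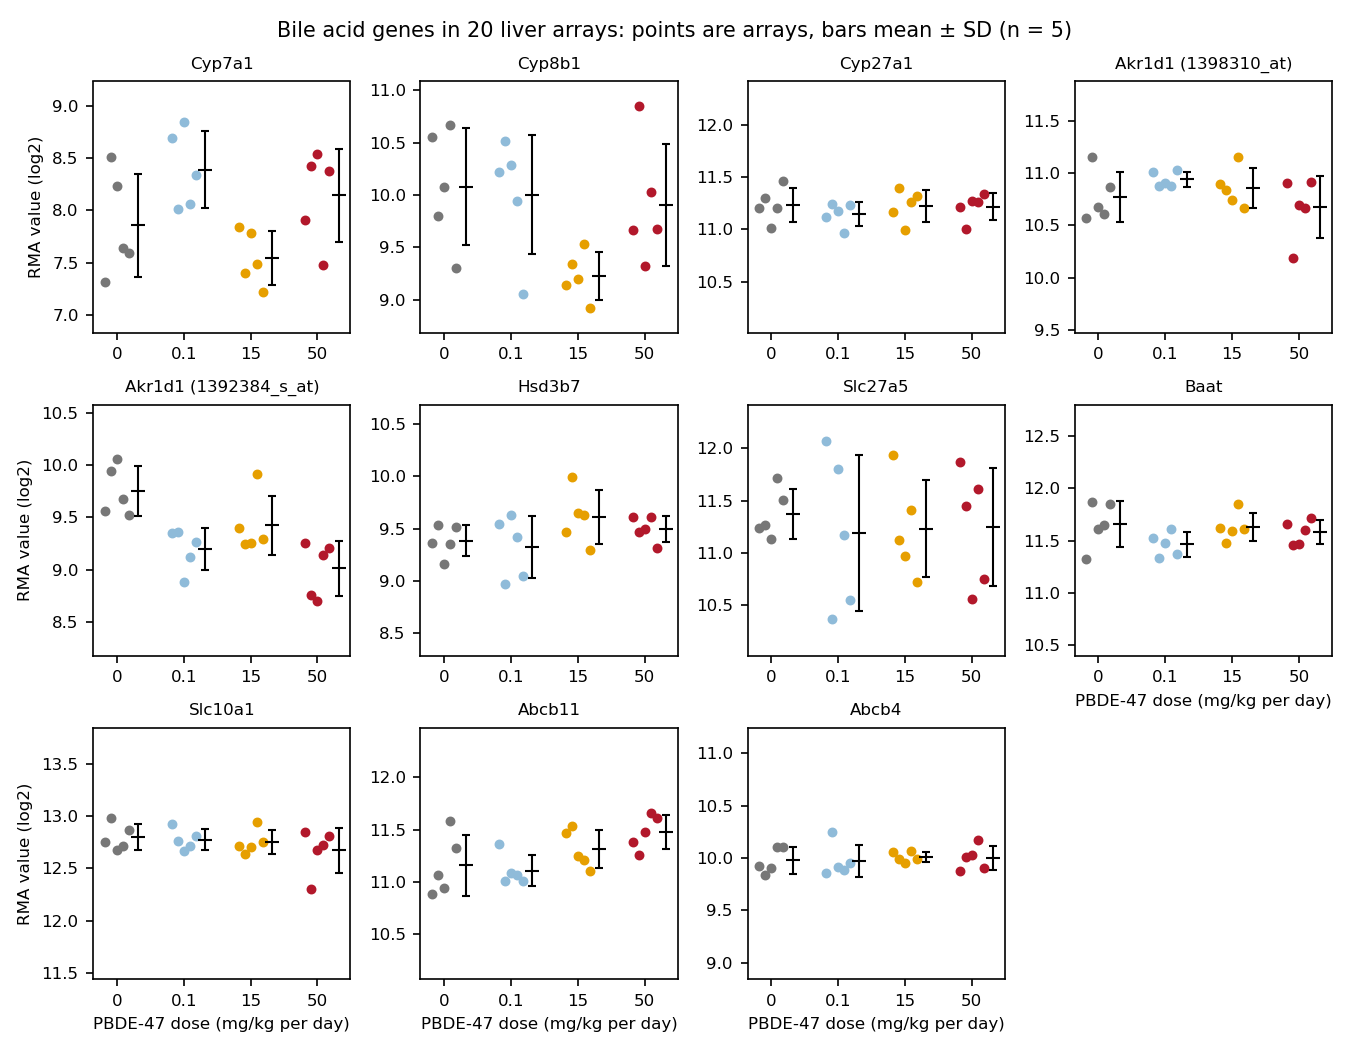
RMA value (y axis, log2; each panel spans the same number of units) of the 11 member probe sets on each array, by dose (x axis, mg/kg per day, 0 being vehicle). Points are arrays and bars are mean ± SD (n = 5): each dose overlaps vehicle in every panel except 1392384_s_at of Akr1d1, where the 0.1 and 50 mg/kg arrays lie below all vehicle arrays.

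Cyp7a1, Cyp8b1 and Slc27a5 varied far more between arrays of 1 dose than the other members. Their pooled within-group SDs were 0.40, 0.51 and 0.54, at percentiles 95, 97.5 and 97.8 of 13980 probe sets with a mean of at least 6, whose median SD was 0.16. The highest of the 20 arrays exceeded the lowest 3.80-fold for Cyp8b1, 3.25-fold for Slc27a5 and 3.07-fold for Cyp7a1. Abcb4 (SD 0.12, percentile 22.5), Cyp27a1 (0.14, percentile 39.2), Slc10a1 (0.15, percentile 41.7) and Baat (0.15, percentile 46.0) lay below that median. For Abcb4 the highest array exceeded the lowest 1.32-fold. Between these fell Abcb11 (0.20, percentile 71.0), Akr1d1 on 1398310_at (0.21, percentile 74.5), Hsd3b7 (0.22, percentile 76.0) and Akr1d1 on 1392384_s_at (0.25, percentile 82.5). The promoters of Cyp8b1 and Cyp27a1 printed above share the CAAGGTC match, and their spreads lie on opposite sides of that median. These promoters were picked to be shown partly for those spreads, and a link of motif to spread was not tested.

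**Figure D4:**
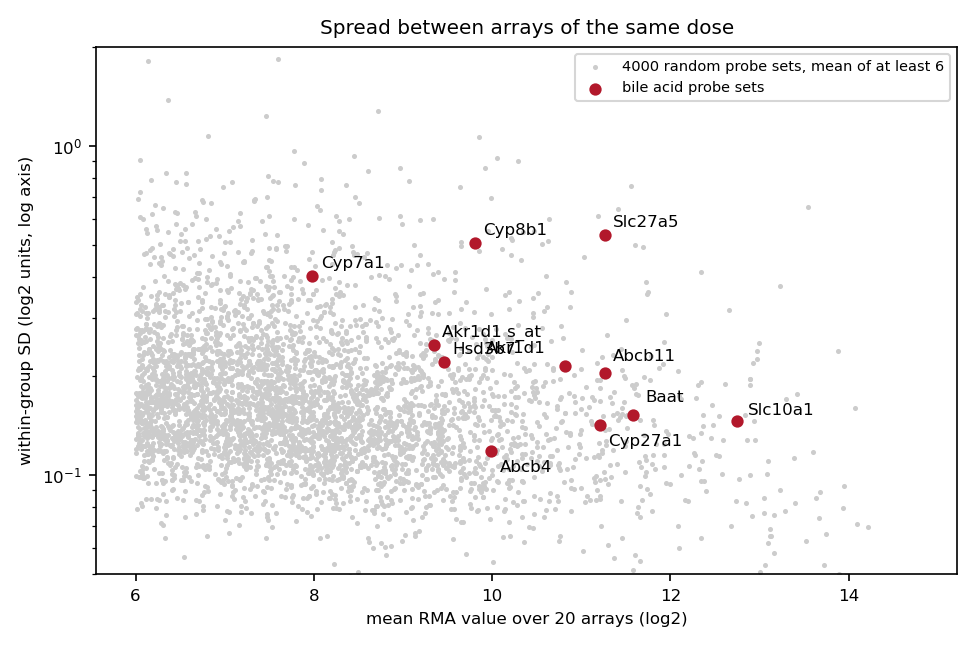
Pooled within-group SD (y axis, log2 units on a log axis) against the mean value over 20 arrays (x axis, log2) for the 11 member probe sets and 4000 randomly drawn others. Cyp7a1, Cyp8b1 and Slc27a5 lie above the bulk of the cloud, with SDs of 0.40 to 0.54, and Abcb4 is lowest of the members at 0.12.

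Members that moved together across arrays are given as descriptions, after each group mean was subtracted. Of 55 pairs of member probe sets, 6 had a correlation over 0.5 and 1 was under -0.5. The closest pair was Akr1d1 on 1398310_at with Slc10a1 (Pearson 0.89, Spearman 0.78, 20 arrays), and each was the other's nearest among 14216 other genes. Without the pair of arrays farthest from the Akr1d1 median, replicate 2 at 50 mg/kg and vehicle replicate 2, Pearson's value was 0.80. Slc10a1 was also close to Baat (0.58), and Baat to Akr1d1 on 1398310_at (0.66, and 0.44 on 1392384_s_at). The negative pair was Cyp8b1 with Akr1d1 on 1398310_at (-0.52), and on 1392384_s_at that value was -0.01. Both values of a pair come from the same RNA and the same array, and the part that tissue makeup has in these correlations was not tested.

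**Figure D5:**
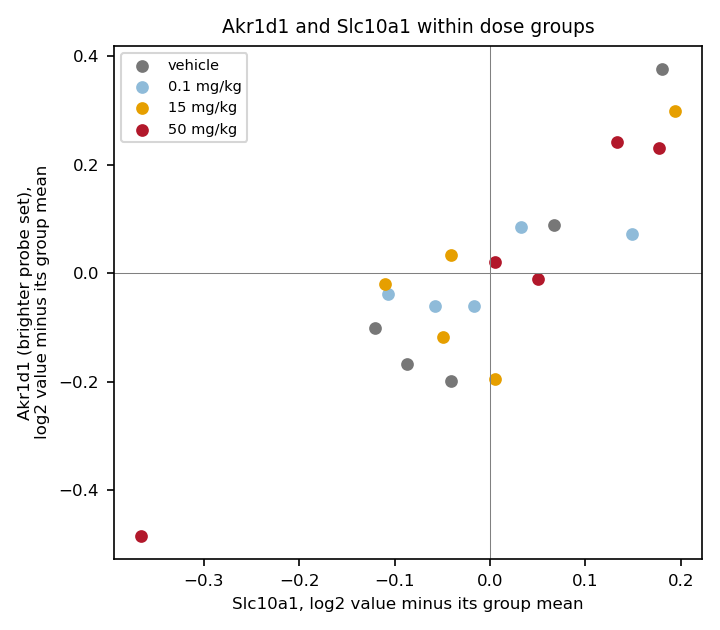
Akr1d1 on probe set 1398310_at (y axis) against Slc10a1 (x axis) on 20 arrays, each as log2 value minus its group mean, coloured by dose. Arrays high in one were high in the other (Pearson 0.89, and 0.80 without 2 arrays), and the isolated low point is replicate 2 at 50 mg/kg.

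Genes nearest to the other members by the same group-centred Pearson correlation were not on the pathway lists used here. Cyp7a1 was nearest to Mobp (0.75), a myelin gene. Cyp8b1 was nearest to Aldh1l2 (0.83), a mitochondrial folate enzyme. Cyp27a1 was nearest to Adhfe1 (0.88) and Hoga1 (0.84), both mitochondrial enzymes. Hsd3b7 was nearest to Abcf3 (0.83), Slc27a5 to Grip2 (0.80), Baat to Itm2b (0.87), Abcb11 to Jade1 (0.77) and Abcb4 to Efna1 (0.80). After Akr1d1, Slc10a1 was nearest to Mocs2 (0.85). The Akr1d1 probe set 1392384_s_at was nearest to C7h22orf23 (0.89). The first gene named for each is the best of 14216 over 20 arrays, apart from Slc10a1, for which Mocs2 came second.

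The regulators of this pathway did not pass either. Of 16 listed genes 14 were measured, and 0 rose and 0 fell at each dose. The median log2 change of the regulators was -0.02 at 0.1 mg/kg, 0.05 at 15 mg/kg and -0.02 at 50 mg/kg. With the smallest p at 50 mg/kg were the liver factors Foxa2 (log2 change 0.39, adjusted p = 0.333), Hnf4a (-0.18, adjusted p = 0.423) and Ppara (0.27, adjusted p = 0.444) and the coactivator Ppargc1a (-0.29, adjusted p = 0.372). Named for their role in the feedback rather than for their p, Nr1h4 had a log2 change of 0.17 at 50 mg/kg (adjusted p = 0.590) and Nr0b2, the repressor it induces, one of -0.08 (adjusted p = 0.925). For Hnf4a the brightest of 3 probe sets is given, and the other two had changes of -0.06 and 0.13.

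Among the other enzymes of bile acid synthesis 16 of 17 were measured, Fdxr having no probe set of its own. Of these 2 rose at 50 mg/kg, 0 fell and 14 did not pass (0.586% of all probe sets rose), with a median log2 change of 0.22. The list was chosen with earlier results of these data known, so its counts cannot be read as an excess over that share. At the lower doses none passed, 0 at 15 mg/kg (median 0.08) and 0 at 0.1 mg/kg (median -0.01). The enzymes that rose pass electrons to cytochromes P450 and serve many other reactions. Por, the reductase of the microsomal P450s, averaged 10.00 ± 0.15 at 50 mg/kg and 9.19 ± 0.49 in vehicle livers (SD, n = 5 each), a 1.76-fold rise (log2 change 0.82, SE 0.162, adjusted p = 0.0186). Fdx1, the ferredoxin of the mitochondrial P450s such as Cyp27a1, averaged 12.08 ± 0.09 at 50 mg/kg and 11.63 ± 0.24 in vehicle livers, a 1.37-fold rise (log2 change 0.45, SE 0.09, adjusted p = 0.0191).

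The Por call was lost when vehicle replicate 2, 3 or 4 or replicate 4 or 5 of the 50 mg/kg arrays was left out (log2 changes 0.74 to 0.80, adjusted p 0.0500 to 0.0572), and a dimmer Por probe set had a change of 0.54 (adjusted p = 0.250). The Fdx1 call held in all 10 fits that left out 1 array, and its dimmer probe set had a change of 0.42 (adjusted p = 0.265). Of 13 other alternatives at 50 mg/kg, Por and Fdx1 each passed in 10. Without the arrays with muscle or pancreas transcripts neither passed (Por 0.72, adjusted p = 0.413; Fdx1 0.45, adjusted p = 0.324), nor with the Kupffer covariate (Por 0.62, adjusted p = 0.596; Fdx1 0.49, adjusted p = 0.406).

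Akr1c14, an oxidoreductase that binds bile acids in rat liver, rose on probe set 1370563_at (log2 change 0.38, adjusted p = 0.0202) and not on its brightest, 1370708_a_at (0.26, adjusted p = 0.429), or on 1396933_s_at (0.35, adjusted p = 0.137). The Akr1c14 call was lost when replicate 3, 4 or 5 of the 50 mg/kg arrays was left out (log2 changes 0.35 to 0.37, adjusted p 0.0518 to 0.0747). Akr1c14 did not pass without the arrays with muscle or pancreas transcripts (0.39, adjusted p = 0.210) or with the Kupffer covariate (0.26, adjusted p = 0.635). At 50 mg/kg it passed in 8 of 12 alternatives other than leaving out 1 array.

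A list of other transporters of bile salts and sterols held 15 genes, of which 14 were measured and Slc51b was not. It included genes that are not membrane transporters, namely the enzyme Ephx1 and the binding proteins Fabp1 and Fabp6. At 50 mg/kg 2 rose, 0 fell and 12 did not pass (0.586% of all probe sets rose), with a median log2 change of 0.07. The same 2 genes rose at 15 mg/kg, where 0.0934% of all probe sets did, with a median of 0.05, and at 0.1 mg/kg 0 passed (median 0.03). This list too was chosen with earlier results known, so its counts cannot be read as an excess over those shares. The genes that rose were Abcc3, an efflux pump of the blood-facing membrane, and Ephx1, the microsomal epoxide hydrolase, which is best known for detoxifying epoxides. Abcc3 ranged from 9.52 to 10.14 at 50 mg/kg and from 7.78 to 8.82 in vehicle livers, a 2.83-fold rise (log2 change 1.5, SE 0.171, adjusted p = 7.3e-05). Abcc3 rose at 15 mg/kg also, 2.36-fold (log2 change 1.24, adjusted p = 0.0026). Ephx1 ranged from 11.89 to 12.32 at 50 mg/kg and from 10.55 to 11.35 in vehicle livers, a 2.28-fold rise (log2 change 1.19, SE 0.124, adjusted p = 3.81e-05). Ephx1 rose at 15 mg/kg also, 1.78-fold (log2 change 0.83, adjusted p = 0.0054).

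The rises of Abcc3 and Ephx1 held in every fit that left out 1 array, at 50 and at 15 mg/kg. Of 13 other alternatives at 15 mg/kg, Ephx1 passed in 10 and Abcc3 in 12, and at 50 mg/kg each passed in 12. Without the arrays with muscle or pancreas transcripts both passed at 50 mg/kg (Abcc3 1.52, adjusted p = 0.0498; Ephx1 1.13, adjusted p = 0.0482) and neither at 15 mg/kg (Abcc3 1.19, adjusted p = 0.259; Ephx1 0.92, adjusted p = 0.222). With the Kupffer covariate neither passed at 50 mg/kg (Abcc3 1.45, adjusted p = 0.142; Ephx1 0.93, adjusted p = 0.176), and at 15 mg/kg Abcc3 did (1.21, adjusted p = 0.0471) and Ephx1 did not (0.70, adjusted p = 0.0942). The Kupffer mean of the 50 mg/kg arrays did not overlap that of vehicle, so this covariate and that dose cannot be told apart. At 0.1 mg/kg the changes were -0.03 for Abcc3 and -0.06 for Ephx1.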

How the data were processed

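The deposited log2 values were made by the authors with RMA, per the submitters' processing notes. RMA corrects background, quantile-normalizes and summarizes probes by median polish. The sources used here give neither its version nor whether the arrays were run together. The series' design text names R/maanova and a false discovery rate of 0.05 for the comparisons of each dose with vehicle, and here limma was used at the same rate. Groups and replicate numbers came from the sample titles, and 0 columns were left unmapped. The 57 control probe sets were left out.

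One mean per group was fitted to 31042 probe sets over all 20 arrays (limma 3.58.1, lmFit followed by eBayes, R 4.3.3). Tests were two-sided with Benjamini-Hochberg adjustment per contrast, and a probe set was called below 0.05. Each dose was set against vehicle and 50 against 15 mg/kg, and a slope was taken over the dose order. GEO's platform annotation gives 1 symbol for 20826 probe sets, several for 436 and none here for 9780. All 11 member probe sets matched the RefSeq table of GRCr8 by gene ID. In counts of genes the brightest probe set stood for a gene. All members were named, and from the pathway lists the genes that passed in any contrast, or else the 4 with the smallest p at 50 mg/kg. The members and lists were chosen with earlier results of these data known.

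Depth does not apply to arrays, and their number limits the precision. On simulated data for 50 mg/kg against vehicle over 31042 probe sets, 72% of changes of 0.5 log2 units, 92% of 1 and 100% of 2 and of 3 were recovered, with 8 false calls. The changed probe sets were drawn at random, and the noise was normal and independent between probe sets, unlike tissue makeup that shifts many genes together. These shares therefore do not carry over to members with a wide spread, such as Cyp7a1, Cyp8b1 and Slc27a5 (SEs of 0.23, 0.29 and 0.31 at 50 mg/kg). Arrays correlated at 0.983 to 0.995 with each other, and 0 columns were identical. Same-numbered arrays did not deviate together, as given with the alternatives. Those tried were blocks, other scalings, a filter at a mean of 6, other variance models, 1 probe set per gene and each array left out. Others, added after seeing the data, left out arrays with muscle or pancreas transcripts or used the Kupffer list mean or the beta-actin 3' minus 5' difference (1.90 to 2.43 at 50 mg/kg, 1.39 to 2.32 in vehicle livers) as a covariate. Because the Kupffer mean did not overlap between vehicle and 50 mg/kg arrays, a call lost with it there cannot be assigned to Kupffer content or to dose.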

Additional observations from a re-analysis of the deposited data

Results flagged for a closer look

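Of 44 groups of 5 arrays examined for the 11 member probe sets, 3 held an array whose gap to the nearest other array took up most of the group's range. Chance gives about 1 such array in 20 groups. Akr1d1 on probe set 1392384_s_at read 9.92 on replicate 4 at 15 mg/kg, against 9.25 to 9.40 on the other 4 arrays of that dose. Abcb11 read 11.36 on replicate 1 at 0.1 mg/kg, against 11.00 to 11.09 on the others. Abcb4 read 10.24 on replicate 2 at 0.1 mg/kg, against 9.86 to 9.96 on the others.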

How the results depend on the processing

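The count of member probe sets called was 1 at 50 mg/kg, always Akr1d1 on 1392384_s_at, and 0 when the fit held just the 2 groups compared (adjusted p = 0.0629), without the arrays with muscle or pancreas transcripts and with the Kupffer covariate. It was 0 to 1 over the 10 fits that left out 1 array, with 7 of 10 calls held. With 1 probe set per gene it was 0, as that probe set was then not tested. Over all alternatives its adjusted p at 50 mg/kg ran from 0.0107 to 0.370. For the slope the count was 1, and 0 with the replicate block (adjusted p = 0.0600), a block on the first digit of each description (0.0511), no variance shrinkage (0.0653), 1 probe set per gene, the muscle and pancreas arrays left out (0.453) and the Kupffer covariate (0.384). It was 0 to 1 over the 20 fits that left out 1 array. The Akr1d1 slope did not pass when vehicle replicate 2, 3 or 4, the 15 mg/kg replicate 1, or the 50 mg/kg replicate 2, 3 or 4 was left out, and without vehicle replicate 4 the Abcb11 slope passed in its place. The cause of these losses was not tested. The replicate block changed no other call of a member. Its numbers do not pair the arrays (30 same-numbered pairs correlated at -0.36 to 0.29, and 4 of 20 arrays best with their own number). Over the whole array the muscle and pancreas arrays left out gave 21 calls at 50 mg/kg and the Kupffer covariate 11, beside 290, and only the groups compared gave 89.

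Of 55 single log2 changes 25 turned their sign under some alternative, 98 values in all, and 0 of these passed. The largest of the 25 as reported was -0.18, for Slc27a5 at 0.1 mg/kg, and the cause was not tested. With array weights they were Cyp27a1 0.011 at 50 mg/kg, Cyp27a1 0.028 and Slc27a5 -0.13 for 50 against 15 mg/kg and Cyp7a1 -0.027 for the slope. With the muscle and pancreas arrays left out they were Abcb4 -0.028 at 50 mg/kg, Cyp27a1 0.056, Slc27a5 0.090, Baat 0.041 and Slc10a1 0.013 at 15 mg/kg, Cyp8b1 0.14, Hsd3b7 0.29 and Slc27a5 0.40 at 0.1 mg/kg and Slc27a5 -0.57 for 50 against 15 mg/kg. With the Kupffer covariate they were Abcb4 -0.17 at 50 mg/kg, Abcb4 -0.062 at 15 mg/kg, Slc27a5 -0.033 for 50 against 15 mg/kg and Cyp27a1 -0.034, Baat 0.0053 and Abcb4 -0.052 for the slope. With the actin covariate they were Cyp27a1 0.035 at 50 mg/kg, Cyp27a1 0.052, Slc27a5 -0.17 and Abcb4 0.028 for 50 against 15 mg/kg and Cyp7a1 -0.011 for the slope. With the description digit block they were Cyp27a1 0.0025 at 15 mg/kg and Abcb4 0.0072 for 50 against 15 mg/kg. With another quantile normalization they were Cyp27a1 0.013 at 15 mg/kg, Abcb4 0.025 at 0.1 mg/kg and Slc27a5 -0.011 for 50 against 15 mg/kg. With equal array medians they were Cyp27a1 0.0014 for 50 against 15 mg/kg. Leaving out 1 array gave Abcb4 -0.021 to 0.056, Cyp27a1 -0.073 to 0.040, Akr1d1 (1398310_at) -0.16 to 0.024 and Slc27a5 -0.28 to 0.044 at 50 mg/kg. It gave Cyp27a1 -0.065 to 0.050, Baat -0.11 to 0.022 and Abcb4 -7e-04 to 0.066 at 15 mg/kg. It gave Cyp8b1 -0.27 to 0.16, Abcb4 -0.072 to 0.029, Hsd3b7 -0.14 to 0.028, Slc27a5 -0.40 to 0.026, Slc10a1 -0.060 to 0.022 and Abcb11 -0.12 to 0.052 at 0.1 mg/kg. It gave Abcb4 -0.054 to 0.020, Slc27a5 -0.14 to 0.19, Cyp27a1 -0.067 to 0.046, Slc10a1 -0.12 to 0.015 and Baat -0.090 to 0.0019 for 50 against 15 mg/kg. It gave Cyp7a1 -0.039 to 0.052, Baat -0.033 to 0.0076, Cyp27a1 -0.014 to 0.020, Slc27a5 -0.081 to 0.017 and Abcb4 -0.0025 to 0.020 for the slope. The 3 alternatives that use muscle or pancreas arrays, the Kupffer list or actin were chosen after seeing the data.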
